A study of Citrus maxima and Citrus sinensis with 8 samples.

Results

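The root tips of Citrus sinensis, the species that the labels give as the Al-tolerant one of a pair, were compared after culture with and without aluminum (Al). The genes described are all those whose mean reached 1 FPKM (fragment counts corrected for gene length and for the size of the library) in +Al roots or in control roots of this species. Of the 30151 genes in the files, 19152 (63.5%) met this rule. Another 6302 were at 0 throughout the 4 C. sinensis libraries, and 4697 had a value above 0 but no group mean of 1 FPKM. The rule divided a continuous range of low values: 242 genes with a highest group mean of 1 to 1.1 FPKM lay just inside it (median 1.05 FPKM), and 241 genes with 0.9 to 1 FPKM lay just outside (median 0.952 FPKM).

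The +Al roots came from 'Xuegan' seedlings in sand that received 1.0 mM AlCl3 in their nutrient solution every day for 18 weeks. Control roots came from seedlings of the same cultivar given the same solution with 0 mM AlCl3. Both solutions were kept at the same acid pH, so the control roots grew in acid too. Each library pooled root tips of 5 seedlings and each group had 2 libraries, and C. grandis, the Al-intolerant species, had the same 2 groups. With 2 pools a group, p-values measure the spread between pools and not between plants. The root tips are called roots below.

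Al dissolves in acid soil and its ions bind the wall and the plasma membrane of root tip cells, where they slow elongation. Roots of tolerant plants are known to release organic acids such as malate and citrate, through channels and carriers of the ALMT and MATE families, which chelate Al outside the cell. They are also known to move Al into the vacuole and to change their cell wall. Al binds phosphate as well, so Al stress and phosphate shortage often come together. In Arabidopsis the zinc finger factor STOP1 is required for several of these genes to be expressed.

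The FPKM summed to 802571 and 808872 in +Al roots and to 812759 and 828354 in control roots, and 22244 to 22412 genes were above 0 in each. The files hold no read totals, and the steps between the lowest FPKM values put the +Al libraries at 0.908 and 0.837 of the depth of control replicate 1. Replicates had a Spearman correlation across genes of 0.979 in +Al roots and 0.981 in control roots, but 47 genes in +Al roots and 39 in control roots were at 0 in one library while its replicate gave at least 10 FPKM. An exact 0 can therefore be a failed estimate, so such genes are given as listed at 0, with no fold change. The 34 photosynthesis genes that served as leaf markers summed to 152 and 148 FPKM in +Al roots and to 189 and 193 FPKM in control roots, with 2 of them at 0 in all 4 libraries. Markers of the endodermis summed to 531 and 562 FPKM in +Al roots and to 496 and 502 FPKM in control roots, and markers of the root cap and epidermis to 99.4 and 97.6 FPKM against 88.9 and 88.1 FPKM.

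Al-treatment changed a moderate share of the root transcriptome, in both directions alike. A gene was called when its fold change reached a log2 of 1 (a doubling or a halving) at a Benjamini-Hochberg adjusted p of at most 0.05 by limma. By this rule 855 genes were higher in +Al roots and 778 were lower, which is 4.46% and 4.06% of the genes tested and 8.53% together. "Rose" and "fell" are used below for called genes alone. The +Al and control values overlapped in 0 of the called genes, as the test itself largely ensures with 2 libraries a group. Of the called genes, 152 rose and 177 fell by a log2 of at least 2. The median log2 fold change was 1.34 among genes that rose and -1.42 among those that fell. Most of the changes that passed the adjusted p were smaller than this limit: 6934 genes (36.2%) passed on p alone, and 76.5% of these stayed under a doubling or a halving. The median over all genes tested was -0.0019. Among the 1740 genes with a group mean of at least 100 FPKM, 91 rose and 93 fell.

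**Figure D1:**
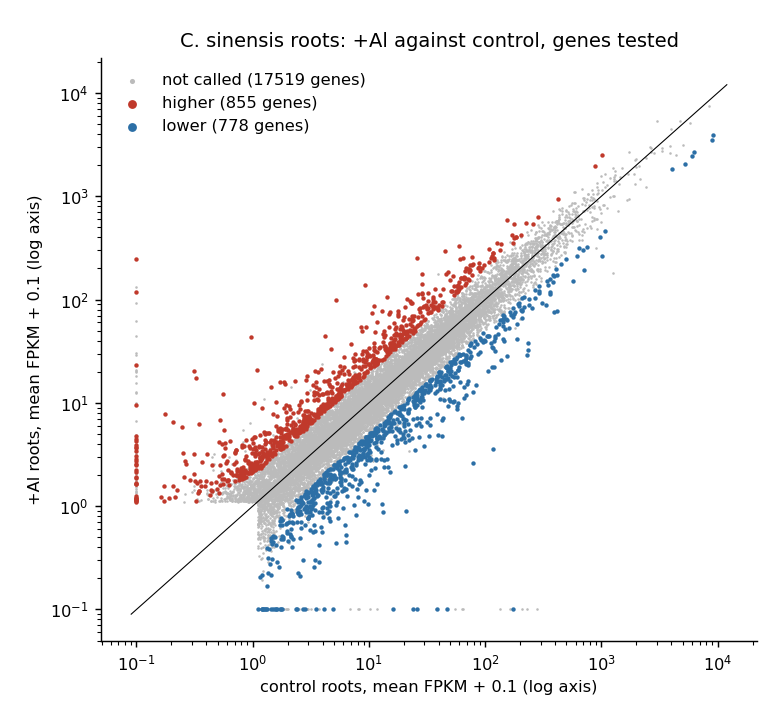
Mean FPKM + 0.1 of each gene tested in control roots (horizontal log axis) and +Al roots (vertical log axis), the line marking equal levels, with 855 genes that rose in red, 778 that fell in blue and 17519 not called in grey. The genes that rose and fell lie on both sides of the line at every level, and the points at 0.1 on either axis are genes listed at 0 in both libraries of that group.

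Values below are given for +Al replicates 1 and 2 and then for control replicates 1 and 2, and fold changes are log2 values with their standard error from limma, +Al over control, on the scale of log2(FPKM + 0.1), which understates the change of low genes. The largest rises among genes above 0 in both groups included transporters and a wall enzyme. Cs6g12780, a malate channel of the ALMT family, had 21.7 and 19.1 FPKM in +Al roots, against 0.0827 and 0.345 FPKM in control roots, a log2 fold change of 6.17 ± 0.44 (adjusted p = 5.2e-04 by limma). Cs4g16770, sulfate transporter 3,5, had 15.6 and 19.1 FPKM in +Al roots, against 0.146 and 0.305 FPKM in control roots (5.78 ± 0.31). In Arabidopsis this protein takes part in sulfate transport from root to shoot. Both genes were close to the lower end of detection in control roots, so their fold changes rest on control values under 1 FPKM. Cs7g05750, glucuronidase 3, an enzyme of a family that removes glucuronic acid from wall polymers, had 45.7 and 39.9 FPKM in +Al roots, against 0.957 and 0.793 FPKM in control roots (5.46 ± 0.15). Of the 15 largest rises, 8 were of genes with no description in the files. One of these was abundant: orange1.1t03403 had 96.5 and 101 FPKM in +Al roots, against 5.16 and 5.15 FPKM in control roots (4.24 ± 0.072).

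Among genes above 0 in both groups and at 5 FPKM or more in at least 1, the largest fall was that of XLOC_020823, a germin-like protein 9-3 found by transcript assembly, with 4.07 and 2.82 FPKM in +Al roots, against 115 and 119.7 FPKM in control roots (-5.08 ± 0.17, adjusted p = 1.1e-04 by limma). Germin-like proteins are wall glycoproteins, some of which have superoxide dismutase or oxalate oxidase activity. A pair of trypsin inhibitors, Cs5g13890 and Cs5g13960, lie close to each other in gene number and fell together. Cs5g13890 had 2.33 and 2.67 FPKM in +Al roots, against 78.3 and 78.2 FPKM in control roots (-4.92 ± 0.10), and Cs5g13960 had 0.769 and 0.845 FPKM in +Al roots, against 23.4 and 18.0 FPKM in control roots (-4.51 ± 0.19). Near-identical copies may share reads, so the split between neighbours of this kind is uncertain. A copper transporter, Cs8g19460, was also among the largest falls, with 0.588 and 0.959 FPKM in +Al roots, against 12.6 and 13.8 FPKM in control roots (-3.96 ± 0.25). Of the 15 largest rises, 4 were listed at 0 in both control libraries, and of the 15 largest falls, 6 were listed at 0 in both +Al libraries. A phosphoenolpyruvate carboxylase, orange1.1t05524, of the enzyme family that supplies carbon for malate and citrate, had 71.7 and 167 FPKM in +Al roots and was listed at 0 in both control libraries.

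Abundant transcripts changed as well. Cs8g18470, a metallothionein-like protein, a small cysteine-rich metal binder, had 3823 and 4059.7 FPKM in +Al roots, against 8828 and 9485 FPKM in control roots (-1.22 ± 0.061). It was one of the most abundant transcripts in both groups. Cs9g04210, a late embryogenesis abundant protein of group 5, a class that accumulates in drying cells, had 2346 and 2599 FPKM in +Al roots, against 5607 and 6488 FPKM in control roots (-1.29 ± 0.089). In the other direction, Cs5g28080, an early nodulin-like protein, had 629 and 638 FPKM in +Al roots, against 278 and 287 FPKM in control roots (1.17 ± 0.045), and Cs4g05470, a repetitive proline-rich cell wall protein, had 906 and 962 FPKM in +Al roots, against 426 and 415 FPKM in control roots (1.15 ± 0.05). Of the 10 most abundant genes that rose, 5 had no description in the files, and of the 10 that fell, 7 had none. The most abundant of the undescribed genes were Cs3g07155, with 2479 and 2529.5 FPKM in +Al roots, against 1068 and 945 FPKM in control roots, and Cs1g04550, with 3406 and 3558 FPKM in +Al roots, against 8737 and 9269 FPKM in control roots.

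A few genes with known parts in Al exclusion rose strongly. Of 6 ALMT genes tested, 2 rose, 1 fell and 3 were not called, beside 4.46% higher and 4.06% lower over all genes. Cs6g12750, the neighbour of Cs6g12780, also rose, with 1.66 and 1.72 FPKM in +Al roots, against 0.226 and 0.156 FPKM in control roots (2.63 ± 0.48), while Cs5g01700, described as ALMT 10, fell, with 7.20 and 6.13 FPKM in +Al roots, against 22.3 and 19.0 FPKM in control roots (-1.62 ± 0.13). Of 33 MATE carriers, 3 rose, 1 fell and 29 were not called, and the family median was -0.042. The highest of them after Al-treatment was Cs7g01770, ferric reductase defective 3b (FRD3), with 260.0 and 248 FPKM in +Al roots, against 26.1 and 25.1 FPKM in control roots (3.31 ± 0.056, adjusted p = 4.3e-05 by limma). FRD3 exports citrate into the xylem in Arabidopsis. In +Al roots its level was above that of every other MATE gene: the next, orange1.1t00013, had 70.7 and 68.8 FPKM in +Al roots and 56.3 and 59.7 FPKM in control roots and was not called (0.27 ± 0.059). Cs1g26350 also rose from a low level (1.41 ± 0.20), and Cs3g16650, multidrug and toxin extrusion protein 1, had 8.96 and 9.85 FPKM in +Al roots, against 19.4 and 20.6 FPKM in control roots (-1.08 ± 0.095).

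Of 16 genes described as STOP1-like or as C2H2 zinc finger factors, 2 rose and 14 were not called. The pair that rose are neighbouring assembled transcripts, both described as STOP1-like. XLOC_021891 had 6.05 and 6.13 FPKM in +Al roots, against 0.210 and 0.285 FPKM in control roots (4.16 ± 0.30), and XLOC_021890 had 4.29 and 4.92 FPKM in +Al roots, against 0.955 and 0.904 FPKM in control roots (2.19 ± 0.22). The gene described as STOP1 itself, Cs3g22510, had 48.1 and 47.6 FPKM in +Al roots and 53.4 and 55.9 FPKM in control roots and was not called (-0.19 ± 0.058). The 2 rising transcripts thus stayed below the level of Cs3g22510 in every library. Of 28 IREG, NRAMP and heavy metal proteins, 1 rose and 3 fell. The one that rose was Cs6g09440, iron regulated 1, a ferroportin of the kind that exports iron and related metals, with 22.6 and 19.9 FPKM in +Al roots, against 3.37 and 4.21 FPKM in control roots (2.46 ± 0.15). Cs5g03070, a heavy metal transport and detoxification protein, fell, with 34.3 and 27.1 FPKM in +Al roots, against 90.1 and 91.0 FPKM in control roots (-1.57 ± 0.12).

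Of 49 ABC transporters, 3 rose and 5 fell, and the number that fell was 2 or 3 at a minimum of 5 FPKM or without control replicate 2. Cs4g04420, ABC transporter I family member 17, the nucleotide-binding protein that is called STAR1 in Arabidopsis and is needed there for Al tolerance, had 117 and 114 FPKM in +Al roots, against 32.2 and 32.2 FPKM in control roots (1.84 ± 0.054). Cs4g15420, an exporter of the multidrug resistance family, had 9.31 and 7.85 FPKM in +Al roots, against 1.94 and 2.02 FPKM in control roots (2.06 ± 0.16). Cs1g13660, a pleiotropic drug resistance protein, fell, with 19.3 and 16.9 FPKM in +Al roots, against 50.02 and 53.4 FPKM in control roots (-1.51 ± 0.089).

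**Figure D2:**
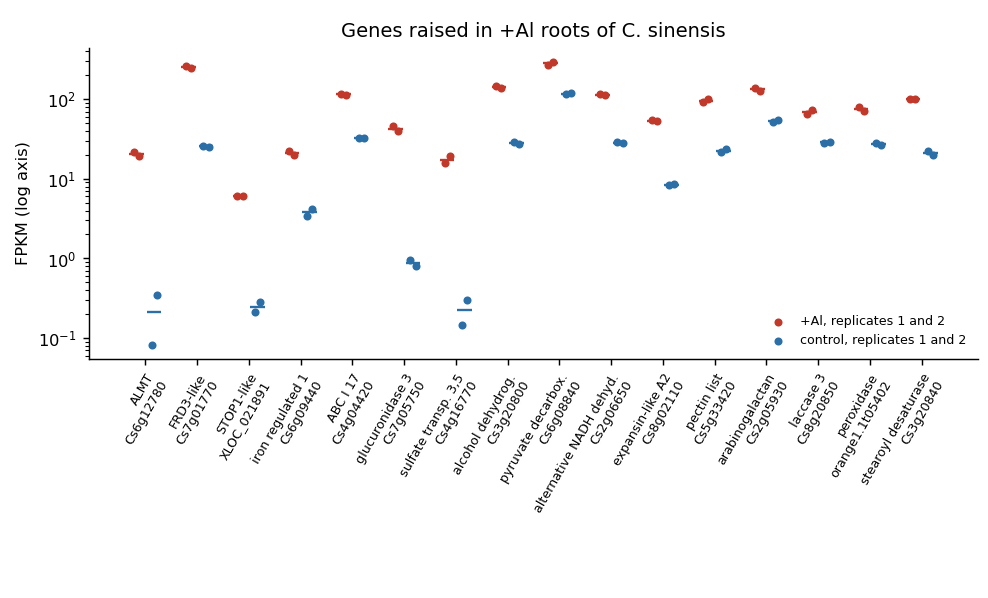
FPKM (log axis) of 16 genes that rose, with +Al replicates 1 and 2 in red to the left of control replicates 1 and 2 in blue for each gene, and a bar at each group mean. In each gene both +Al points lie above both control points, and the malate channel, the STOP1-like transcript, glucuronidase 3 and sulfate transporter 3,5 lie under 1 FPKM in control roots.

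Phosphate genes rose in part. SPX proteins bind inositol phosphates and report the phosphate state of the cell. Of 4 tested, 1 rose: Cs4g17870, SPX domain gene 2, with 114 and 95.3 FPKM in +Al roots, against 35.3 and 36.1 FPKM in control roots (1.55 ± 0.10). A second, orange1.1t00194, had 72.9 and 62.8 FPKM in +Al roots and 35.8 and 36.8 FPKM in control roots, and its log2 fold change of 0.90 ± 0.086 stayed under the limit. Of 17 purple acid phosphatases, secreted or vacuolar enzymes that free phosphate from organic compounds, 5 rose and 1 fell. The count of 5 was 2 without either +Al replicate and 3 without control replicate 2, and the family median was 0.40. Cs8g08310, purple acid phosphatase 10, which in Arabidopsis sits on the root surface, had 30.8 and 35.9 FPKM in +Al roots, against 14.6 and 14.7 FPKM in control roots (1.18 ± 0.10), and its neighbour Cs8g08300 had 18.2 and 17.5 FPKM in +Al roots, against 8.23 and 8.02 FPKM in control roots (1.13 ± 0.089). Cs7g02530, purple acid phosphatase 27, went the other way, with 0.168 and 0.240 FPKM in +Al roots, against 3.05 and 3.60 FPKM in control roots (-3.50 ± 0.38).

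Phosphate transporters split. Of 12 tested, 2 rose and 1 fell. Cs5g29860 had 146 and 165 FPKM in +Al roots, against 70.8 and 74.2 FPKM in control roots (1.097 ± 0.074) and was the more abundant, and Cs9g18560 had 9.72 and 10.3 FPKM in +Al roots, against 53.3 and 52.3 FPKM in control roots (-2.39 ± 0.073). Of 29 genes of phospholipid breakdown and galactolipid synthesis, 3 rose and 0 fell, with a median of 0.35. Cs4g05250, monogalactosyldiacylglycerol synthase 2, which in Arabidopsis replaces phospholipids with galactolipids under phosphate shortage, had 14.6 and 13.05 FPKM in +Al roots, against 5.38 and 5.58 FPKM in control roots (1.32 ± 0.11). Cs1g22570, a phospholipase A1, had 88.3 and 86.1 FPKM in +Al roots, against 37.3 and 34.2 FPKM in control roots (1.28 ± 0.066). All 3 called genes of this list were higher in +Al roots.

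In sulfur metabolism most called genes were transferases of glutathione, which also form the longest list. The shares called were 25% of these transferases, 30% of sulfate transport genes and 10% of genes of sulfate assimilation, beside 8.53% over all genes. Of 10 sulfate transport genes, 2 rose and 1 fell. Of 30 genes of sulfate assimilation and of cysteine and methionine synthesis, 1 rose and 2 fell, and Cs9g07420, a homocysteine methyltransferase, had 38.3 and 30.8 FPKM in +Al roots, against 78.8 and 82.6 FPKM in control roots (-1.23 ± 0.11). Glutathione transferases couple glutathione to toxic compounds. Of 44 tested, 5 rose and 6 fell, and the 6 became 3 without either control replicate. The falls were the larger: orange1.1t04916, of the tau class, had 4.70 and 4.87 FPKM in +Al roots, against 36.3 and 42.4 FPKM in control roots (-3.01 ± 0.11), and orange1.1t04722 had 7.98 and 9.27 FPKM in +Al roots, against 52.4 and 61.8 FPKM in control roots (-2.71 ± 0.12). The genes that rose lay between a log2 of 1.11 and 1.67.

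Genes for nitrogen uptake fell in greater number than they rose. Of 11 ammonium transporters, 5 fell, 2 rose and 4 were not called, against 4.06% lower over all genes tested. Cs5g25370, AMT1;2, the most abundant of them in control roots, had 15.5 and 16.3 FPKM in +Al roots, against 59.2 and 63.0 FPKM in control roots (-1.94 ± 0.071, adjusted p = 1.4e-04 by limma). Cs7g04990, ammonium transporter 3 member 1, had 5.52 and 6.39 FPKM in +Al roots, against 32.1 and 34.9 FPKM in control roots (-2.47 ± 0.11). Cs5g30580 and Cs5g03120 fell by a like amount (-2.63 ± 0.21 and -2.48 ± 0.14). All of these proteins carry ammonium across the plasma membrane. The rises were smaller, at 1.03 and 1.06, and each was lost under at least 1 alternative. After Al-treatment the summed level of the family was 106 and 104 FPKM, against 176 and 184 FPKM in control roots.

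Of 20 nitrate and peptide transporters, 6 fell and 2 rose. Cs8g16010, a nitrate transporter, had 13.9 and 16.1 FPKM in +Al roots, against 66.4 and 73.3 FPKM in control roots (-2.22 ± 0.10). Cs7g22760, nitrate transporter 1.5, which in Arabidopsis loads nitrate into the xylem, had 12.8 and 12.5 FPKM in +Al roots, against 31.4 and 32.6 FPKM in control roots (-1.34 ± 0.073). Of the 10 nitrogen assimilation enzymes 0 were called by limma, but 6 passed on adjusted p alone and 8 on unadjusted p. Their summed level was 1178 and 1222 FPKM in +Al roots, against 1947 and 2050 FPKM in control roots. Most of that sum was Cs8g20410, an asparagine synthetase, with 889 and 946 FPKM in +Al roots and 1629 and 1726 FPKM in control roots (-0.87 ± 0.056, not called). Of 25 amino acid carriers, 5 fell and 1 rose, and 3 fell under 5 of the alternatives, among them the fits without +Al replicate 1 and without either control replicate. The carrier that rose, Cs8g02010, had 48.4 and 51.6 FPKM in +Al roots, against 13.2 and 13.6 FPKM in control roots (1.89 ± 0.072), and Cs8g02760, amino acid permease 2, had 1.73 and 1.48 FPKM in +Al roots, against 5.32 and 5.99 FPKM in control roots (-1.76 ± 0.19).

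Most ZIP genes of metal uptake fell. ZIP proteins carry zinc and iron into the cell. Of 9 tested, 6 fell, 0 rose and 3 were not called, and the family median was -1.77. Cs2g10720, zinc transporter 10, had 24.6 and 27.7 FPKM in +Al roots, against 139 and 134 FPKM in control roots (-2.38 ± 0.077). Cs4g18450, zinc transporter 4, had 12.8 and 13.7 FPKM in +Al roots, against 42.6 and 48.3 FPKM in control roots (-1.77 ± 0.091), and Cs8g18810, ZRT/IRT-like protein 2, had 9.38 and 8.77 FPKM in +Al roots, against 29.0 and 28.5 FPKM in control roots (-1.65 ± 0.083). Cs2g11620, zinc transporter 1, was low in control roots and fell to 0.406 and 0.444 FPKM in +Al roots, against 5.35 and 7.26 FPKM in control roots. Cs8g20480 fell by less (-1.36 ± 0.089). One further member, orange1.1t05711, was listed at 0 in 3 libraries and at 268 FPKM in control replicate 1, so no sum of the family is given.

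Copper transporters of the COPT type, which import copper, fell in part. The 3 neighbours Cs8g19450, Cs8g19460 and Cs8g19470 all fell, and the most abundant, Cs8g19470, had 5.46 and 3.93 FPKM in +Al roots, against 43.0 and 41.1 FPKM in control roots (-3.16 ± 0.16, adjusted p = 2.3e-04 by limma). Of 14 copper proteins and transporters in all, 3 fell and 2 rose, and the 2 that rose were laccases, given with lignin. The copper transporters Cs4g06330, XLOC_015998 and Cs2g11510 were not called. Of 12 genes of nicotianamine synthesis, iron storage and iron uptake, 4 fell and 1 rose, and the one that rose was FRD3 (Cs7g01770), already given among the MATE carriers. Cs3g15140, nicotianamine synthase 3, which makes the metal chelator nicotianamine, had 28.3 and 28.02 FPKM in +Al roots, against 78.9 and 72.3 FPKM in control roots (-1.42 ± 0.068).

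A further 4 genes of iron and zinc supply were chosen after their values were seen. orange1.1t00399, a ferric reductase oxidase 2-like protein, the enzyme family that reduces iron at the root surface before uptake, had 2.16 and 2.55 FPKM in +Al roots, against 19.7 and 21.0 FPKM in control roots (-3.06 ± 0.13). orange1.1t03944, described as ORG2, a factor induced by iron deficiency in Arabidopsis, had 0.659 and 1.06 FPKM in +Al roots, against 5.10 and 6.74 FPKM in control roots (-2.67 ± 0.30). Cs4g03870, a cadmium and zinc ATPase, had 2.35 and 1.97 FPKM in +Al roots, against 9.72 and 10.9 FPKM in control roots (-2.21 ± 0.16), and Cs3g04600, yellow stripe-like 3, a carrier of metals bound to nicotianamine, had 0.608 and 1.32 FPKM in +Al roots, against 4.34 and 4.13 FPKM in control roots (-2.11 ± 0.38). Its adjusted p by limma was 0.085 without control replicate 1 and 0.081 without control replicate 2, so its call rests on both.

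Water and ion transport changed less widely. Of 17 aquaporins, 5 fell and 0 rose, with a median of -0.41. Cs3g18230, of the NIP subfamily, had 8.14 and 10.3 FPKM in +Al roots, against 56.1 and 58.2 FPKM in control roots (-2.63 ± 0.12). The neighbours Cs6g11690 and Cs6g11700, both described as plasma membrane intrinsic protein 2,2, the water channel type of the plasma membrane, had 18.2 and 17.4 FPKM in +Al roots, against 54.5 and 60.2 FPKM in control roots and 23.8 and 26.9 FPKM in +Al roots, against 63.8 and 64.0 FPKM in control roots. Their log2 fold changes were -1.68 ± 0.077 and -1.33 ± 0.079. The most abundant member, Cs8g17900, had 155 and 171 FPKM in +Al roots and 300.3 and 304 FPKM in control roots and was not called (-0.89 ± 0.062). Of 21 proton pump genes, 2 fell. Cs5g08370, plasma membrane H+-ATPase 11, had 2.48 and 2.99 FPKM in +Al roots, against 13.4 and 15.3 FPKM in control roots (-2.35 ± 0.15), while the abundant Cs3g25710, a vacuolar subunit, had 311 and 360.5 FPKM in +Al roots and 303 and 316 FPKM in control roots (0.11 ± 0.079, not called). Of 18 potassium and sodium transport genes, 1 rose and 1 fell.

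**Figure D3:**
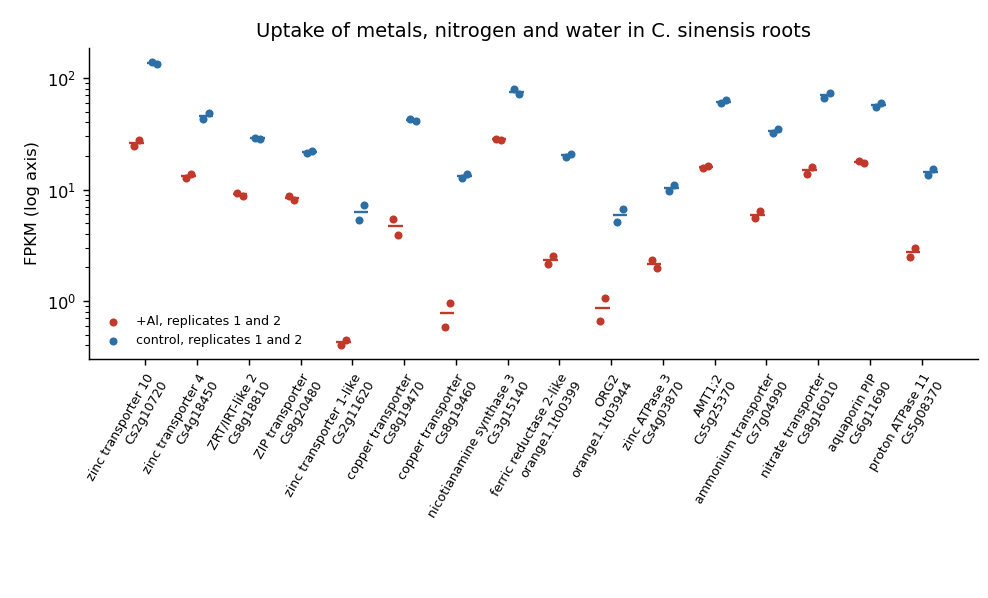
FPKM (log axis) of 16 genes of metal, nitrogen, water and proton transport, with +Al replicates 1 and 2 in red to the left of control replicates 1 and 2 in blue for each gene, and a bar at each group mean. In each gene both +Al points lie below both control points, and the gap is widest in the copper transporter Cs8g19460, at 0.588 and 0.959 FPKM in +Al roots against 12.6 and 13.8 FPKM in control roots.

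In carbon metabolism, 3 genes of fermentation and 1 of alternative respiration rose, while most members of both lists were not called. Of 16 fermentation genes, 3 rose and 1 fell, beside 4.46% higher and 4.06% lower over all genes, with a median of -0.057. Alcohol dehydrogenase regenerates NAD+ by turning acetaldehyde into ethanol. Cs3g20800 had 145 and 136 FPKM in +Al roots, against 29.3 and 27.3 FPKM in control roots (2.31 ± 0.066, adjusted p = 9.1e-05 by limma), and its neighbour Cs3g20810 had 21.1 and 20.3 FPKM in +Al roots, against 6.59 and 5.03 FPKM in control roots (1.83 ± 0.15). Another neighbour and the most abundant of the set, Cs3g20830, had 303 and 329 FPKM in +Al roots and 179 and 179 FPKM in control roots, under the fold limit at 0.82 ± 0.056. Cs6g08840, a pyruvate decarboxylase, the enzyme that supplies acetaldehyde, had 269 and 293 FPKM in +Al roots, against 115 and 119 FPKM in control roots (1.26 ± 0.061). Of 7 genes of alternative respiration, 1 rose: Cs2g06650, alternative NAD(P)H dehydrogenase 1, had 115 and 114 FPKM in +Al roots, against 28.8 and 27.9 FPKM in control roots (2.01 ± 0.056). That mitochondrial enzyme passes electrons to ubiquinone without pumping protons. The most abundant of the 7, a mitochondrial uncoupling protein, was not called (-0.28 ± 0.043). It had 357 and 354 FPKM in +Al roots and 436 and 428 FPKM in control roots.

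Of 50 glycolysis genes, 5 rose and 0 fell, and 2 or 3 rose at a pseudocount of 1, without either +Al replicate or without control replicate 2. Cs4g13070, phosphofructokinase 3, which commits sugar phosphate to glycolysis, had 212 and 217 FPKM in +Al roots, against 95.1 and 100.2 FPKM in control roots (1.13 ± 0.052), and Cs3g18540, a phosphoglycerate mutase family protein, had 69.6 and 64.9 FPKM in +Al roots, against 17.8 and 22.2 FPKM in control roots (1.75 ± 0.12). Of 33 genes of organic acid metabolism, 2 rose and 1 fell. Cs4g19200, NADP-malic enzyme 4, which turns malate into pyruvate, had 159 and 157 FPKM in +Al roots, against 65.7 and 64.5 FPKM in control roots (1.28 ± 0.049). The most abundant, orange1.1t04187, an isocitrate dehydrogenase, had 328 and 328 FPKM in +Al roots and 368 and 380.3 FPKM in control roots (-0.19 ± 0.045, not called). Sugar transporters (1 rose and 1 fell of 39) and sucrose and starch enzymes (1 and 1 of 39) showed shares of 2.56% in each direction, below those over all genes.

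Of these transcripts, 3 that rose in carbon metabolism and the proton pump that fell were also followed by PCR in the study. The primers it designed are the only sequences at hand for them, and they were not matched to any transcript here. The PCR values are not analysed here. Each is written in lower case, forward and then reverse.
Cs3g20800 forward: ctttacttccctttgcc
Cs3g20800 reverse: atgttgctttcttctgatt
Cs2g06650 forward: atggcattagcaaggtt
Cs2g06650 reverse: caagggaaggtgagaaa
Cs4g19200 forward: gcacaaccttcgccaata
Cs4g19200 reverse: cgcctgaaaatgctccc
Cs5g08370 forward: agtggagcgaagaagat
Cs5g08370 reverse: tgttgaacccgaataaa

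Called wall protein genes were all higher and expansins split. Of 32 arabinogalactan, extensin and proline-rich proteins, glycoproteins that are woven into the wall, 6 rose and 0 fell, with a median of 0.46. The summed level of the list was 4042 and 4219 FPKM in +Al roots, against 2564 and 2446 FPKM in control roots. Cs2g05930, an arabinogalactan protein, had 140.2 and 129 FPKM in +Al roots, against 52.0 and 55.1 FPKM in control roots (1.33 ± 0.067), and Cs3g08990, a 14 kDa proline-rich protein, had 315 and 301 FPKM in +Al roots, against 116 and 98.2 FPKM in control roots (1.53 ± 0.087). Expansins loosen the wall during growth. Of 18 tested, 3 rose and 5 fell. Cs8g02110, expansin-like A2, had 55.1 and 52.8 FPKM in +Al roots, against 8.29 and 8.67 FPKM in control roots (2.66 ± 0.075). The most abundant of those that fell, XLOC_004133, expansin-like B1, had 99.5 and 136 FPKM in +Al roots, against 343 and 379.7 FPKM in control roots (-1.63 ± 0.15).

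Of 47 pectin enzymes, 3 rose and 0 fell, with a median of 0.44. Cs5g33420, described only by the superfamily name of plant invertase and pectin methylesterase inhibitors, had 92.1 and 99.8 FPKM in +Al roots, against 21.6 and 23.6 FPKM in control roots (2.08 ± 0.076), and orange1.1t00214, a pectinesterase, an enzyme that unmasks the acid groups of pectin, had 36.8 and 37.8 FPKM in +Al roots, against 15.7 and 16.9 FPKM in control roots (1.19 ± 0.075). Of 20 xyloglucan enzymes, 1 rose: Cs9g06230, an inhibitor of xyloglucan-specific endoglucanase, had 126 and 132 FPKM in +Al roots, against 55.4 and 61.8 FPKM in control roots (1.14 ± 0.071). An abundant endotransglycosylase, orange1.1t02385, had 384 and 418 FPKM in +Al roots and 212 and 196 FPKM in control roots and was just under the fold limit (0.98 ± 0.066). Of 26 genes of cellulose and callose synthesis, 0 were called by limma, although 14 passed on adjusted p and 14 on unadjusted p alone. Of 70 glycosyl hydrolases and beta-glucanases, 2 rose and 3 fell, shares near those over all genes, and the larger rise was that of glucuronidase 3 (Cs7g05750).

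Peroxidases of class III, secreted enzymes that cross-link or loosen wall polymers, rose or were not called. Of 40 tested, 12 rose and 0 fell, against 4.46% higher over all genes, with a median of 0.45. The 12 became 5 when all 8 libraries shared 1 estimate of the spread. orange1.1t05402, a cationic peroxidase, had 80.3 and 70.8 FPKM in +Al roots, against 27.8 and 26.6 FPKM in control roots (1.47 ± 0.081). The most abundant peroxidase, Cs2g03110, had 2190.2 and 2315 FPKM in +Al roots and 1982 and 1928 FPKM in control roots and was not called (0.20 ± 0.05). Germin-like proteins split, with 4 of 27 higher and 3 lower: Cs3g04870 had 9.79 and 9.93 FPKM in +Al roots, against 0.593 and 1.25 FPKM in control roots (3.37 ± 0.34), opposite to the fall of XLOC_020823 and of its relative Cs7g20270 (-2.42 ± 0.19). Of 28 genes in the list of antioxidant enzymes, 2 rose and 1 fell. Among those that rose was Cs8g01960, an ascorbate oxidase homolog, which the paper discusses with cell wall genes and not as an antioxidant. It had 159 and 166 FPKM in +Al roots, against 62.2 and 61.9 FPKM in control roots (1.39 ± 0.052). The most abundant antioxidant gene, Cs8g17370, ascorbate peroxidase 2, had 972 and 1031 FPKM in +Al roots and 1267 and 1319.7 FPKM in control roots (-0.37 ± 0.052, not called). Of 48 glutaredoxins and thioredoxins, 0 were called by limma, while 21 passed on adjusted p and 26 on unadjusted p alone.

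Phenolic and lignin genes moved both ways. Laccases polymerise lignin in the wall. Cs8g20850, laccase 3, had 64.4 and 72.9 FPKM in +Al roots, against 28.3 and 29.2 FPKM in control roots (1.25 ± 0.079), and Cs8g17630, laccase 17, had 15.6 and 14.8 FPKM in +Al roots, against 5.26 and 6.21 FPKM in control roots (1.39 ± 0.12). Of 51 genes of lignin and phenylpropanoid synthesis, 3 rose and 6 fell, and the 6 became 3 without either control replicate. The neighbours Cs5g24940 and Cs5g24960, both caffeic acid O-methyltransferases, fell, with 37.9 and 39.3 FPKM in +Al roots, against 94.0 and 98.9 FPKM in control roots for the first and 4.44 and 4.06 FPKM in +Al roots, against 10.5 and 10.3 FPKM in control roots for the second (-1.32 ± 0.059 and -1.27 ± 0.12). The enzyme adds the methyl groups of lignin units. orange1.1t02085, another gene of that description, rose, with 9.60 and 9.41 FPKM in +Al roots, against 1.35 and 2.31 FPKM in control roots (2.36 ± 0.26). Of 48 flavonoid genes, 0 rose and 2 fell, and of 28 terpenoid genes, 0 rose and 4 fell, among them Cs4g12050, a germacrene D synthase, with 5.72 and 4.82 FPKM in +Al roots, against 14.3 and 17.1 FPKM in control roots (-1.56 ± 0.14).

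Cytochrome P450 enzymes, oxidases of secondary metabolism and hormone turnover, had more called members than any other list used here, but not the largest share. Their share called was 36.3%, beside 8.53% over all genes, and several shorter lists had a larger one, such as ZIP transporters at 66.7%. Of 91 tested, 21 fell and 12 rose, with a median of -0.35. orange1.1t02087 had 105 and 106 FPKM in +Al roots, against 12.7 and 15.7 FPKM in control roots (2.896 ± 0.11), and Cs9g17460 had 6.63 and 6.72 FPKM in +Al roots, against 0.523 and 0.321 FPKM in control roots (3.72 ± 0.29). Among those that fell, Cs3g24170, of family 82, had 1.25 and 1.84 FPKM in +Al roots, against 11.1 and 12.1 FPKM in control roots (-2.85 ± 0.22), and Cs5g25060 had 1.12 and 0.867 FPKM in +Al roots, against 5.22 and 5.17 FPKM in control roots (-2.28 ± 0.23). The falls ranged to a log2 of -3.58 and the rises to 3.72. P450 genes often lie in arrays of near-identical copies, so single members are uncertain.

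Lipid genes were called in both directions, and the jasmonate genes called all rose. The shares higher and lower were 21.4% and 14.3% in the suberin list, 10% and 5% in the fatty acid list and 18.2% and 0% in the jasmonate list. Over all genes they were 4.46% and 4.06%. Of 28 suberin, wax and GDSL lipase genes, 6 rose and 4 fell, and 2 rose at a minimum of 5 FPKM, with all 8 libraries sharing 1 spread or without +Al replicate 1. Cs6g20410, glycerol-3-phosphate acyltransferase 6, had 1.39 and 1.58 FPKM in +Al roots, against 6.77 and 7.45 FPKM in control roots (-2.19 ± 0.18), and Cs8g01950, a GDSL esterase, had 7.06 and 5.70 FPKM in +Al roots, against 29.8 and 33.4 FPKM in control roots (-2.30 ± 0.13). The rises in this list lay between a log2 of 1.19 and 1.98. Suberin and cutin are polyesters that seal outer and inner cell layers of the root. Of 20 genes of fatty acid synthesis and desaturation, 2 rose and 1 fell. Cs3g20840, a stearoyl-ACP desaturase, which makes oleic acid, had 101 and 102 FPKM in +Al roots, against 22.3 and 19.99 FPKM in control roots (2.26 ± 0.073, adjusted p = 1.0e-04 by limma), and Cs4g06470, an acyl carrier protein, had 5.61 and 7.89 FPKM in +Al roots, against 43.2 and 41.9 FPKM in control roots (-2.66 ± 0.17). Of 22 jasmonate genes, 4 rose and 0 fell: Cs2g03240, TIFY 5A, a repressor of jasmonate response, had 184 and 182 FPKM in +Al roots, against 49.0 and 46.8 FPKM in control roots (1.93 ± 0.053), and Cs5g17920, a 12-oxophytodienoate reductase, of the enzyme family of jasmonate synthesis, had 42.2 and 49.4 FPKM in +Al roots, against 16.3 and 20.8 FPKM in control roots (1.304 ± 0.14).

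Genes of cell division and protein synthesis were shifted upward by small amounts. Of 88 cell cycle genes, 11 rose and 0 fell, with a median of 0.43 against -0.0019 over all genes. This count was not stable: it was 3 at a pseudocount of 1 or without +Al replicate 1, 4 at a minimum of 5 FPKM, 5 with all 8 libraries sharing 1 spread, and 6 without each other library. Cs1g26410, cyclin B2,1, which drives entry into mitosis, had 11.7 and 10.6 FPKM in +Al roots, against 4.34 and 4.39 FPKM in control roots (1.33 ± 0.12). It kept its call under each alternative that left the fold limit unchanged. Cytosolic ribosomal proteins changed by less than the limit almost throughout, with 1 higher and 1 lower of 141. On adjusted p alone 85 were higher and 6 lower, against 18.6% higher and 17.6% lower over all genes, the median was 0.34, and their summed level was 40107.2 and 40107 FPKM in +Al roots, against 32659 and 33712 FPKM in control roots. Of 25 histones, 1 rose and 1 fell, while 15 were higher and 1 lower on adjusted p alone, with a median of 0.46. Cs8g18120, a histone H4, had 571 and 623 FPKM in +Al roots and 431 and 438 FPKM in control roots (0.46 ± 0.057). Of 75 cytoskeleton genes 0 were called by limma, 27 were higher and 4 lower on adjusted p alone (34 passed on unadjusted p), and the median was 0.17.

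The markers of dividing cells moved with these lists: the 12 matched genes summed to 1491 and 1504 FPKM in +Al roots, against 1089 and 1024 FPKM in control roots, and the log2 fold change was above 0 in 11 of 11 tested, of which 2 were called. Histone genes are part of that marker list and of the histone list alike. In bulk root tips more or fewer cells of a type and more or less RNA per cell cannot be told apart. The part of the share of dividing cells in the growth lists was not tested.

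**Figure D4:**
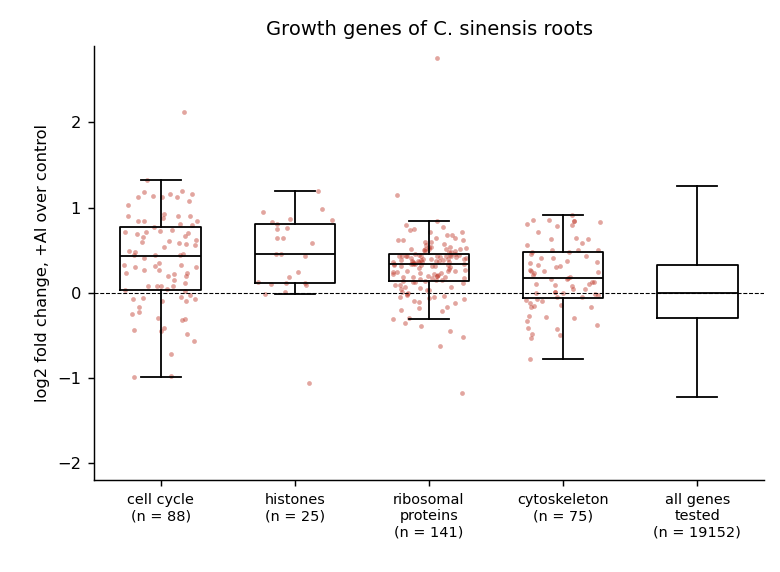
Log2 fold change (+Al over control, vertical axis) of each gene tested in 4 growth lists, as points, with a box at the quartiles and median and whiskers to the last value within 1.5 times the box, and for all 19152 genes tested the box alone. The medians are 0.43 for cell cycle genes, 0.46 for histones, 0.34 for ribosomal proteins and 0.17 for the cytoskeleton, against -0.0019 over all genes.

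Transcription factors moved in both directions. Of 53 AP2/ERF factors, which include the ethylene response factors, 6 rose and 7 fell, and 3 rose without +Al replicate 1 or control replicate 2 while 4 fell at a minimum of 5 FPKM or without control replicate 1. Cs1g04650 had the largest rise of those at 5 FPKM or more, with 43.9 and 45.005 FPKM in +Al roots, against 4.12 and 4.06 FPKM in control roots (3.41 ± 0.083), and Cs6g20790 fell, with 0.784 and 1.06 FPKM in +Al roots, against 4.85 and 5.36 FPKM in control roots (-2.36 ± 0.24). Of 31 WRKY factors, which act in stress and defense, 5 rose and 2 fell, and 3 rose at a minimum of 5 FPKM. Cs2g02790 had 81.9 and 82.5 FPKM in +Al roots, against 30.1 and 32.8 FPKM in control roots (1.39 ± 0.066), and Cs6g10120, described as WRKY 70, had 41.8 and 38.0 FPKM in +Al roots, against 18.5 and 18.2 FPKM in control roots (1.12 ± 0.077). Of 58 MYB factors, 6 rose and 3 fell, but 2 or 3 rose under each fit that left out a library, with all 8 libraries sharing 1 spread, at a pseudocount of 1 or at a minimum of 5 FPKM. Cs2g07040, related to Myb4, which in Arabidopsis represses phenylpropanoid genes, had 35.8 and 27.7 FPKM in +Al roots, against 7.74 and 10.9 FPKM in control roots (1.77 ± 0.20), and Cs8g17920, described as Myb 59, had 41.3 and 38.6 FPKM in +Al roots, against 115 and 125 FPKM in control roots (-1.59 ± 0.07).

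Homeobox factors fell or were not called: of 42, 0 rose and 5 fell (3 without either control replicate), with a median of -0.32. Cs6g13660, BEL1-like homeodomain protein 1, had 33.6 and 31.1 FPKM in +Al roots, against 71.9 and 71.3 FPKM in control roots (-1.15 ± 0.064), and Cs3g23280, WUSCHEL related homeobox 4, a regulator of cambium stem cells in Arabidopsis, had 1.55 and 1.69 FPKM in +Al roots, against 5.01 and 5.97 FPKM in control roots (-1.70 ± 0.19). Of 25 bHLH factors, 2 rose and 2 fell, and of 24 NAC factors, 1 rose and 2 fell. Cs6g09670, described as bHLH61, had 5.24 and 4.27 FPKM in +Al roots, against 19.6 and 23.3 FPKM in control roots (-2.15 ± 0.15).

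Hormone genes were called in both directions. Of 58 genes of auxin response and transport, 6 rose and 1 fell, while 15 were higher and 15 lower on adjusted p alone, with a median of -0.032. Cs9g08100, auxin-induced protein 22D, of the Aux/IAA repressors, had 46.0 and 44.7 FPKM in +Al roots, against 19.3 and 16.1 FPKM in control roots (1.36 ± 0.10). Cs2g03380, a gibberellin 2-beta-dioxygenase, which inactivates gibberellins, had 54.9 and 54.1 FPKM in +Al roots, against 15.7 and 18.0 FPKM in control roots (1.69 ± 0.086), and orange1.1t01850, a type-A response regulator of the cytokinin pathway, had 14.1 and 10.3 FPKM in +Al roots, against 3.94 and 3.70 FPKM in control roots (1.63 ± 0.18). Cs9g06010, an isopentenyltransferase of cytokinin synthesis, fell, with 8.03 and 7.52 FPKM in +Al roots, against 18.4 and 18.7 FPKM in control roots (-1.24 ± 0.091). Of 15 ethylene genes, 1 rose: Cs4g13870, whose description names only 1-aminocyclopropane-1-carboxylate, the precursor of ethylene, had 64.3 and 53.7 FPKM in +Al roots, against 16.3 and 16.4 FPKM in control roots (1.84 ± 0.10). Of 27 genes of abscisic acid and dehydration proteins, 4 fell and 2 rose, with a median of -0.39. The summed level of this list was 3806 and 4035 FPKM in +Al roots, against 7673 and 8583 FPKM in control roots, and most of it was the late embryogenesis abundant protein Cs9g04210. A dehydrin, Cs8g01990, went the other way, with 52.2 and 50.9 FPKM in +Al roots, against 17.8 and 18.7 FPKM in control roots (1.49 ± 0.067).

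Among signalling genes, those of calcium were called about as often as all genes, at 9.09% beside 8.53%. In the calcium list 8.08% rose and 1.01% fell, beside 4.46% and 4.06% over all genes. Of 99 calcium signalling genes, 8 rose and 1 fell, and 5 rose at a pseudocount of 1, at a minimum of 5 FPKM, without +Al replicate 1 or without either control replicate. Cs9g07790, an autoinhibited calcium ATPase, which pumps calcium out of the cytosol, had 7.70 and 7.42 FPKM in +Al roots, against 2.66 and 2.66 FPKM in control roots (1.47 ± 0.14), and Cs3g19070, an EF hand protein, had 15.2 and 14.6 FPKM in +Al roots, against 40.1 and 44.7 FPKM in control roots (-1.50 ± 0.083). Of 259 receptor-like kinases, 12 rose and 13 fell, 4.63% and 5.02%, close to the 4.46% and 4.06% over all genes. Both counts were 5 or 6 at a pseudocount of 1, at a minimum of 5 FPKM or without control replicate 2, and the first was 7 without control replicate 1. The neighbours Cs7g05270 and Cs7g05280, lectin-domain receptor kinases, fell together: Cs7g05270 had 22.3 and 21.6 FPKM in +Al roots, against 109 and 118 FPKM in control roots (-2.37 ± 0.066), and Cs7g05280 had 5.84 and 6.07 FPKM in +Al roots, against 23.1 and 27.9 FPKM in control roots (-2.07 ± 0.12). Cs5g13540, a leucine-rich repeat kinase, rose, with 16.3 and 16.9 FPKM in +Al roots, against 4.23 and 4.55 FPKM in control roots (1.90 ± 0.11).

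Defense and protein breakdown genes fell in greater number than they rose, though the count of resistance genes was unstable. The shares lower were 21.7% of pathogenesis-related proteins and chitinases, 7.5% of NBS-LRR genes and 13.9% of proteases, beside 4.06% over all genes. The shares higher were 10.9%, 2.5% and 2.97%, beside 4.46%. Of 46 pathogenesis-related proteins and chitinases, 10 fell and 5 rose, with a median of 0.18, and 2 or 3 rose without either +Al replicate, without control replicate 1, with no trend of spread, with all 8 libraries sharing 1 spread or at a minimum of 5 FPKM. Cs8g01840, a chitinase, an enzyme that cuts fungal cell walls, had 10.04 and 10.4 FPKM in +Al roots, against 53.0 and 55.5 FPKM in control roots (-2.39 ± 0.072), while the most abundant one, Cs5g24680, had 489 and 528 FPKM in +Al roots and 473 and 465 FPKM in control roots (0.12 ± 0.054, not called). Of 80 NBS-LRR resistance genes, 6 fell and 2 rose, and the 6 ranged between 1 (all 8 libraries sharing 1 spread) and 10 (without +Al replicate 1), with 2 without either control replicate and 3 with no trend of spread. Of 101 proteases, 14 fell and 3 rose. Cs3g23360, a subtilisin-like protease, had 18.7 and 22.1 FPKM in +Al roots, against 107 and 106 FPKM in control roots (-2.39 ± 0.091), and Cs2g04950, a KDEL-tailed cysteine endopeptidase, a type active in dying cells, had 1.51 and 1.18 FPKM in +Al roots, against 9.12 and 9.65 FPKM in control roots (-2.72 ± 0.19). Cs9g06200, an aspartyl protease, rose, with 21.3 and 18.8 FPKM in +Al roots, against 3.73 and 2.95 FPKM in control roots (2.56 ± 0.15). The most abundant protease, another of the aspartyl family, was not called (0.81 ± 0.048). It had 1160 and 1207 FPKM in +Al roots and 689 and 662 FPKM in control roots.

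Inhibitors of proteases also fell in greater number than they rose. Of 17 tested, 5 fell and 3 rose, beside 4.06% lower and 4.46% higher over all genes. Besides the 2 trypsin inhibitors given above, Cs9g08680, another trypsin inhibitor, had 68.6 and 82.0 FPKM in +Al roots, against 374 and 407 FPKM in control roots (-2.38 ± 0.10), and orange1.1t05560, a type I proteinase inhibitor, had 33.5 and 31.6 FPKM in +Al roots, against 241 and 224 FPKM in control roots (-2.83 ± 0.064). The summed level of the list was 847 and 961 FPKM in +Al roots, against 1636 and 1585 FPKM in control roots. Few genes of protein folding and turnover were called. Of 118 heat shock proteins and chaperones, 2 rose and 2 fell (3.39% together), and of 279 ubiquitin ligases and F-box proteins, 5 rose and 7 fell (4.30%), beside 8.53% over all genes. These last counts were 1 to 3 and 4 at their lowest, the first without either +Al replicate or at a pseudocount of 1 and the second at a minimum of 5 FPKM.

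**Figure D5:**
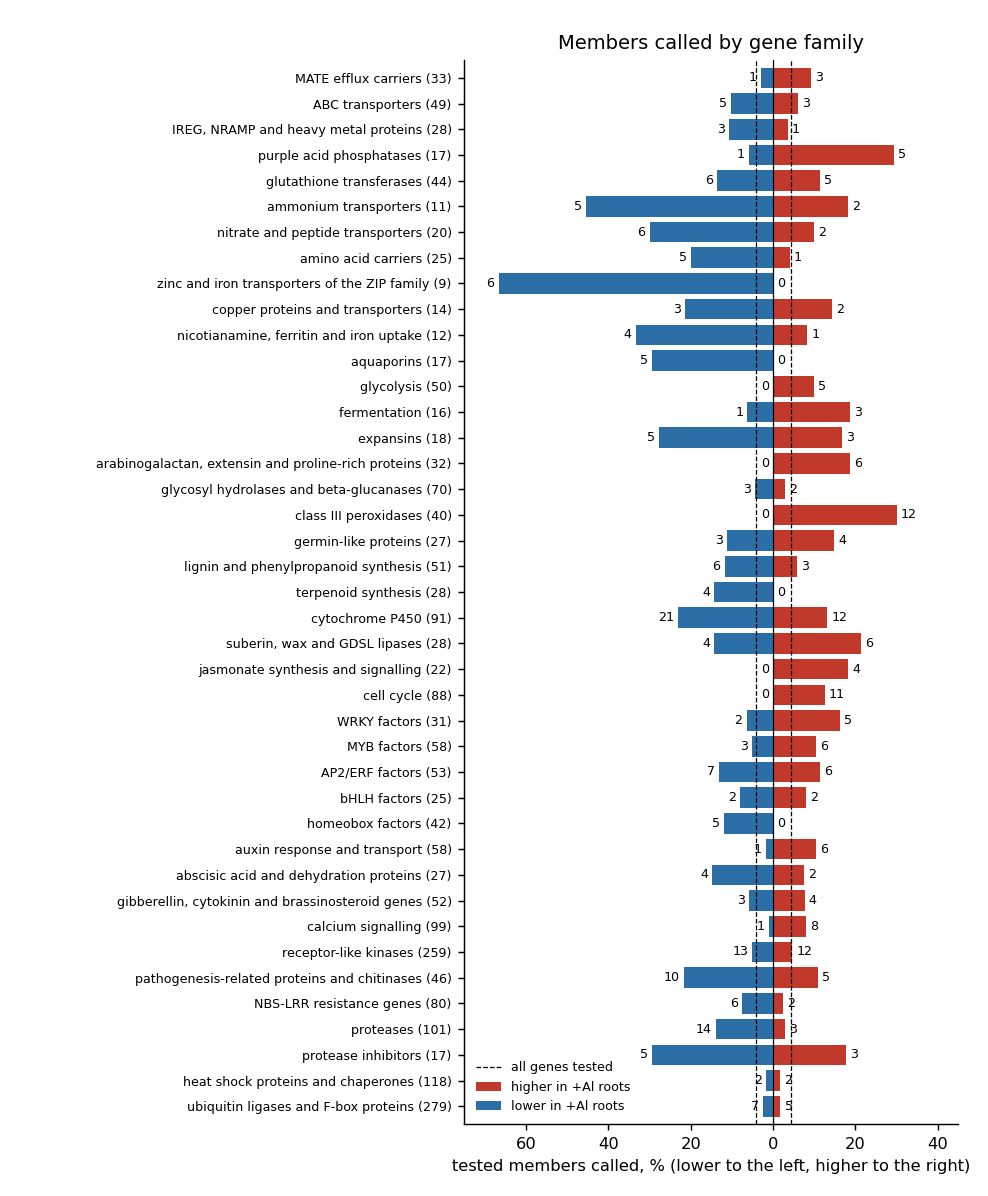
Share of the tested members of each gene list (number tested in brackets) that rose in +Al roots (red, to the right of 0) or fell (blue, to the left), in percent, with the number of genes at the end of each bar, for the lists with at least 4 called members. Dashed lines mark the shares over all genes tested, 4.46% higher and 4.06% lower, and the longest bars are the 6 of 9 ZIP transporters that fell, to the left, and the 12 of 40 class III peroxidases that rose, to the right.

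The response of C. sinensis was then set against that of C. grandis, gene by gene, as the difference of the log2 fold changes of both species (interaction in limma over 8 libraries). Reads of both species were mapped to the C. sinensis genome, so levels were not compared across species. The C. grandis +Al libraries were less alike than those of C. sinensis. Their FPKM summed to 713378 and 795854, and their 10 highest genes held 12.4% and 7.73% of the sum. In C. sinensis +Al roots those shares were 5.43% and 5.66%. All C. grandis responses below rest on these libraries and the C. grandis controls. The responses differed for 3542 of 20158 genes tested (17.6%), the C. sinensis response being the higher one in 2279 (11.3%) and the lower one in 1263 (6.27%). Of the genes with a different response, 64.3% had the higher response in C. sinensis, and 52.8% after the libraries were rescaled by the median of ratios, which raised the number to 6037. The count was 1161 to 1394 without any 1 of the C. sinensis libraries, 1951 and 2092 without a C. grandis control library, and 7166 and 5840 without C. grandis +Al replicate 1 and 2. Of the genes that rose in C. sinensis, 455 (53.2%) differed from C. grandis, and of those that fell, 329 (42.3%). The choice of these genes raises both shares, because their large C. sinensis response is itself part of the difference. Genes listed at 0 throughout the C. grandis libraries also stayed in this test, and for them no C. grandis response was measured.

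Wall genes differed mostly one way. The C. sinensis response was higher in 13 of 20 xyloglucan enzymes, in 22 of 50 pectin enzymes and in 17 of 33 arabinogalactan, extensin and proline-rich proteins, and lower in 0 of each, and after rescaling the counts were 14, 26 and 17. The other wall lists had both directions: 12 higher and 2 lower of 27 genes of cellulose and callose synthesis (14 and 4 after rescaling), 17 and 5 of 73 glycosyl hydrolases and beta-glucanases (25 and 10), and 4 and 1 of 18 expansins (4 and 1). The xyloglucan, pectin and arabinogalactan lists had medians of 0.061, 0.41 and 0.42 in C. sinensis, against -1.24, -0.54 and -0.69 in C. grandis. For expansin-like A2 (Cs8g02110) the log2 fold change was 2.66 in C. sinensis and -1.58 in C. grandis, a difference of 4.24 ± 0.31. Cs9g06230 had 1.14 against -1.55, a difference of 2.69 ± 0.17.

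Ribosomal proteins also differed mostly one way, with the C. sinensis response higher in 65 and lower in 1 of 143 (54 and 3 after rescaling), and medians of 0.34 in C. sinensis and -0.24 in C. grandis. For cell cycle genes the counts were 16 and 2 of 88 (22 and 5 after rescaling), for histones 10 and 2 of 26 (6 and 2), and for genes of fatty acid synthesis and desaturation 11 and 0 of 22 (10 and 1). The stearoyl-ACP desaturase Cs3g20840 had 2.26 in C. sinensis and -1.52 in C. grandis, a difference of 3.78 ± 0.49. In fermentation the counts were 6 and 1 of 17 with and without rescaling, and alcohol dehydrogenase Cs3g20800 had 2.31 against -0.51, a difference of 2.82 ± 0.24.

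Aquaporins had a higher response in C. sinensis in 9 of 17 and a lower one in 0 (9 and 1 after rescaling), and the abundant Cs8g17900 had -0.89 in C. sinensis and -2.58 in C. grandis, a difference of 1.69 ± 0.16. ZIP transporters went the other way, with the C. sinensis response lower in 4 of 9 and higher in 0 with and without rescaling, as did homeobox factors, with 9 of 44 lower and 0 higher (15 and 1 after rescaling). For ZRT/IRT-like protein 2 (Cs8g18810) the values were -1.65 in C. sinensis and -0.40 in C. grandis, a difference of -1.25 ± 0.20. Among the 4 ZIP genes was zinc transporter 5, which did not fall in C. sinensis (0.036) and had 1.47 in C. grandis. The most abundant ZIP gene, Cs2g10720, had -2.38 in C. sinensis against -2.87 in C. grandis, and Cs2g11620 had -3.59 against -4.88. The responses of Cs2g10720 and Cs2g11620 did not differ at the threshold. In the phosphate genes, SPX2 (Cs4g17870) had 1.55 in C. sinensis and 3.45 in C. grandis, a difference of -1.90 ± 0.25, and galactolipid synthase Cs4g05250 had 1.32 against 3.86, a difference of -2.55 ± 0.28. Both were thus higher under Al in both species and less so in C. sinensis. The malate channel Cs6g12780 had 6.17 against 7.64 in C. grandis, with a difference of -1.48 ± 0.81 that missed the threshold. The differences given here with a standard error for single genes, that of Cs6g12780 apart, each passed the test under all 16 alternatives.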

How the data were processed

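RNA of C. sinensis and C. grandis root tips was sequenced (Illumina), with 2 libraries for each of 4 groups and 5 seedlings pooled in each library. Per the labels and the study's methods, the authors removed ribosomal reads with Bowtie, mapped both species to the C. sinensis genome with TopHat2, assembled transcripts with Cufflinks and deposited FPKM per gene. Their own gene test was edgeR 3.0.0 under R 2.1.5. Other versions, like the genome build, were not given in the sources used here, and whether libraries were scaled to each other is not stated. The deposited FPKM hold no read counts, so limma took the place of a count test, and read totals were not used here.

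Genes whose mean reached 1 FPKM in either C. sinensis group were fitted as log2(FPKM + 0.1) with limma 3.58.1 in R 4.3.3, with a trend of spread on level, on the 4 C. sinensis libraries. Calls needed a Benjamini-Hochberg adjusted p of at most 0.05 over all 19152 genes and a change of at least 1 on the log2 scale. The difference between species was the interaction over 8 libraries, among genes whose mean reached 1 FPKM in any group. Tables and plots used Python 3.11.15, pandas 2.3.3, numpy 2.4.6 and matplotlib 3.10.9. The fit was tested on simulated data.

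Gene lists were matched to the deposited descriptions, which 49.5% of the genes tested have. A gene can be in 2 lists, and lists by description miss undescribed members. Up to 4 called members per list at a mean of 5 FPKM or more and the most abundant member could be named, with the 15 largest changes, the 10 most abundant called genes in each direction and all members of small families of transport and phosphate. Members and lists were chosen with earlier results of these data known. Primers come from the study's supplement.

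Alternatives were the pseudocount, the filter, rescaling, known genes alone, all 8 libraries sharing 1 spread, no trend, a replicate block, the fold limit and each library left out.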

Additional observations from a re-analysis of the deposited data

Results flagged for a closer look

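The genes listed here had an Al response in C. sinensis that differed from that of C. grandis, by an interaction in limma over 8 libraries at an adjusted p of at most 0.05. They are 101 of the 155 genes named. Each value is the log2 fold change of C. sinensis minus that of C. grandis, so a positive value means a larger rise or a smaller fall in C. sinensis. The C. sinensis response was the higher one in 73 and the lower one in 28. Under 16 alternatives 46 of the 101 kept the difference throughout, and 0 turned direction.

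Of those that kept it, 37 had the higher response in C. sinensis. In carbon metabolism these were alcohol dehydrogenases Cs3g20800 (2.82), Cs3g20810 (1.78) and Cs3g20830 (1.60), pyruvate decarboxylase Cs6g08840 (1.88) and malic enzyme Cs4g19200 (1.42). In the wall they were expansin-like Cs8g02110 (4.24), arabinogalactan protein Cs2g05930 (2.38), xyloglucan genes Cs9g06230 (2.69) and orange1.1t02385 (2.15), pectin list member Cs5g33420 (1.79), laccase Cs8g17630 (2.09), peroxidase Cs2g03110 (1.27) and ascorbate oxidase homolog Cs8g01960 (3.35). Lipid and jasmonate genes were desaturase Cs3g20840 (3.78), acyl carrier protein Cs4g06470 (1.64), phospholipase Cs1g22570 (3.04), TIFY 5A Cs2g03240 (4.77) and oxophytodienoate reductase Cs5g17920 (1.93). Transporters were ammonium transporters Cs5g03120 (2.99) and Cs5g30580 (3.36), amino acid carrier Cs8g02010 (2.71), aquaporin Cs8g17900 (1.69) and exporter Cs4g15420 (2.74). Hormone and regulatory genes were gibberellin oxidase Cs2g03380 (2.61), Cs4g13870 of the ethylene list (2.79) and Myb4-related Cs2g07040 (3.65). The proteases Cs9g06200 (5.21) and Cs3g23360 (2.12) and the P450 genes Cs9g17460 (5.36) and orange1.1t02087 (3.63) also belong here. Among genes chosen after their values were seen they were arogenate dehydrogenase Cs4g05200 (3.34), phytyltransferase Cs3g03960 (3.57), berberine family genes Cs2g10160 (3.52) and orange1.1t04969 (3.31), and glycosyltransferases Cs3g18100 (1.92) and orange1.1t05518 (1.63). Another berberine gene, orange1.1t05110, had 3.41.

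The other 9 that kept it had the lower response in C. sinensis. They were phosphate genes Cs4g05250 (-2.55), Cs4g17870 (-1.90) and orange1.1t00194 (-2.24), nitrate transporter Cs7g22760 (-2.66), ZIP gene Cs8g18810 (-1.25), heavy metal protein Cs5g03070 (-1.39), proteinase inhibitor orange1.1t05560 (-1.302), and factors Cs6g13660 (-1.54) and Cs8g17920 (-2.16).

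The remaining 55 lost the difference under at least 1 alternative, most often without 1 of the C. sinensis libraries, where 48 to 59 of the 101 kept it. With the higher response in C. sinensis, these were transporters Cs6g12750 (4.23), Cs1g26350 (1.99), Cs5g29860 (1.15), Cs7g04990 (2.30), Cs3g18230 (1.02), Cs6g11690 (1.91), Cs6g11700 (2.15) and Cs5g08370 (2.37). Wall and oxidative genes were Cs3g08990 (2.22), Cs4g05470 (2.23), Cs3g04870 (4.34), Cs7g20270 (1.61), Cs8g20850 (1.25) and orange1.1t04916 (1.84). In carbon, phosphate and lipid metabolism they were Cs2g06650 (1.19), Cs4g13070 (1.298), Cs3g18540 (1.53), Cs8g08310 (1.00) and Cs6g20410 (1.64). Growth, regulatory and other genes were Cs1g26410 (1.95), Cs8g18120 (0.73), Cs1g04650 (4.18), Cs2g02790 (1.23), Cs9g08100 (1.41), Cs5g13540 (1.95), Cs8g01990 (2.56), Cs5g28080 (1.36), the chitinase Cs5g24680 (0.55) and the undescribed Cs3g07155 (1.18). Genes chosen after their values were seen were Cs3g22910 (4.41), Cs2g30610 (4.19), Cs1g24440 (2.47), Cs3g18090 (2.22), orange1.1t02079 (2.38), orange1.1t02081 (2.61) and orange1.1t02091 (2.21).

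With the lower response in C. sinensis and a difference lost under at least 1 alternative, genes of Al and metal handling were Cs7g01770 (-1.13), Cs7g05750 (-1.79), Cs6g09440 (-1.68), XLOC_021890 (-1.21), Cs5g01700 (-1.97), Cs3g16650 (-1.63), Cs8g19460 (-2.09), Cs8g19470 (-1.42) and Cs8g20480 (-1.16). The others were the wall enzyme Cs7g05750 (-1.79), Cs5g24940 (-1.22), Cs5g24960 (-1.76), Cs5g25060 (-2.24), Cs4g12050 (-1.67), Cs5g13890 (-1.62), Cs8g01840 (-1.64), Cs9g04210 (-0.87), Cs3g19070 (-0.99), Cs6g09670 (-1.40) and Cs6g10120 (-1.22).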

How the results depend on the processing

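The numbers of genes higher and lower in +Al roots stayed within 1.5 times of 855 and 778 under 13 alternatives, and left that range only when the limit itself was changed: 152 and 177 at a log2 limit of 2, and 3558 and 3376 with no fold limit. Without 1 library they ranged over 646 to 729 and 544 to 801. With the replicate block they were 839 and 778. The replicate numbers only number the pools (r = -0.0075 between the deviations of same-numbered libraries over 19152 genes), so the block says nothing of pairing.

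The number of genes whose responses differed between species depended more on the processing. It was 3542, against 6037 after rescaling, 1867 with the replicate block and 1161 to 7166 without 1 library. The cause was not tested.

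Of the 138 called genes that are named, 135 kept the call under every alternative in which they were fitted, with the fold limit left unchanged. Another 3 lost it under at least 1, as given beside them, and 0 turned direction. A gene that an alternative left out, such as a gene below its minimum FPKM, could not lose its call there. Family counts below 5 can change with 1 gene. Of 34 family counts of at least 5, 21 moved by over 1.5 times under some alternative, as given beside each. The FPKM do not give the number of reads behind a low value, and read totals were not used here.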

Other observations

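The genes here lie outside the lists of the report or the naming rule. They were chosen after their values were seen, except orange1.1t05110, which the naming rule allows. Cs4g05200, arogenate dehydrogenase, which makes tyrosine, had 86.1 and 85.2 FPKM in +Al roots, against 29.0 and 29.995 FPKM in control roots (1.53 ± 0.057). A pair of tyrosine decarboxylases, which make tyramine, rose as well: Cs3g22910 had 241 and 249.6 FPKM in +Al roots, against 62.7 and 58.3 FPKM in control roots (2.02 ± 0.059), and Cs2g30610 had 211 and 188 FPKM in +Al roots, against 69.4 and 74.2 FPKM in control roots (1.47 ± 0.075). Cs3g03960, described as a homogentisate phytyltransferase, an enzyme of tocopherol synthesis, had 88.0 and 80.3 FPKM in +Al roots, against 28.05 and 30.03 FPKM in control roots (1.53 ± 0.074). Among FAD-binding proteins of the berberine family, 3 abundant ones rose: orange1.1t05110 had 527 and 565 FPKM in +Al roots, against 224 and 228 FPKM in control roots (1.27 ± 0.052), Cs2g10160 had 289 and 279 FPKM in +Al roots, against 118 and 114 FPKM in control roots (1.29 ± 0.049), and orange1.1t04969 had 391 and 396 FPKM in +Al roots, against 160.1 and 192 FPKM in control roots (1.16 ± 0.091). How many other members of the berberine family were tested or called was not counted. The decarboxylases were no longer called when all 8 libraries shared 1 spread (adjusted p by limma 0.10 for Cs3g22910 and 0.27 for Cs2g30610). In each of these genes both +Al values lay above both control values.

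Several genes of close gene number rose, while others of the numbers between them are not given here. The methyltransferase orange1.1t02091 had 76.6 and 77.9 FPKM in +Al roots, against 11.8 and 13.7 FPKM in control roots (2.59 ± 0.091), beside orange1.1t02085 and orange1.1t02087 of the report, and the P450 genes orange1.1t02079, orange1.1t02081 and orange1.1t02084 had log2 fold changes of 2.10 ± 0.19, 1.64 ± 0.19 and 1.22 ± 0.086. Close copies may share reads, so these are not independent values. Of 62 O-methyltransferases in all, 8 rose and 11 fell, with a median of -0.43.

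Of 58 UDP-glycosyltransferases, which attach sugars to hormones and phenolics, 6 rose and 6 fell, with a median of -0.11. Cs3g18090 had 16.1 and 16.1 FPKM in +Al roots, against 2.29 and 2.12 FPKM in control roots (2.82 ± 0.12), its neighbour Cs3g18100 had 17.5 and 18.2 FPKM in +Al roots, against 3.02 and 2.66 FPKM in control roots (2.61 ± 0.12), and orange1.1t05518 had 47.3 and 52.1 FPKM in +Al roots, against 8.65 and 8.70 FPKM in control roots (2.50 ± 0.082). Cs1g24440, a salicylate O-methyltransferase, which makes methyl salicylate, had 33.5 and 32.7 FPKM in +Al roots, against 4.605 and 4.61 FPKM in control roots (2.82 ± 0.086).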
